A study of Mus musculus with 3 samples.

Results

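The transcripts described here belong to 10 genes that move bicarbonate or interconvert it with carbon dioxide: the anion exchanger pendrin (Slc26a4), its transcriptional regulator Foxi1, the SLC4 family transporters Slc4a2, Slc4a4 and Slc4a11, and the carbonic anhydrases Car2, Car3, Car12, Car13 and Car14. They were chosen by gene symbol, and each matched 1 row of the 57180 genes in the deposited table. The 3 libraries form 1 group: wild-type (WT) cells of the mouse vestibule, the part of the inner ear that senses balance, that looked like black balls and that the labels call macrophages, with no treatment and no age given. The protocols in the labels speak of 18 cells from 9 mice, with 3 mice per group. The sources used here do not tie these groups of mice to libraries or say how the cells were split over the libraries. There is no control group, and p-values measure only the spread between libraries, which may be technical.

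Carbonic anhydrases are zinc enzymes that convert carbon dioxide and water to bicarbonate and a proton. In the inner ear, pendrin exchanges chloride for bicarbonate at the apical membrane of epithelial cells and so supplies bicarbonate to endolymph, the fluid that bathes the hair bundles. Loss of pendrin causes the deafness and enlarged vestibular aqueduct of Pendred syndrome. FOXI1 is a forkhead transcription factor of ionocyte-like cells, such as those of the endolymphatic sac, where pendrin expression depends on it.

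The libraries held between 14095521 and 18460546 counts, and 3 counts, the floor used for a gene listed at 0, equalled between 0.163 and 0.213 CPM (the count scaled to the library total). This floor covers counting error only, as the reads carried no molecular identifiers. The label macrophage could be checked against 12 markers, of which 12 stood above 1 TPM (the deposited FPKM, a count per length and depth, rescaled to the same sum in each library), with a summed level between 4912 and 7758 TPM. Markers of other cell types were counted too. Above 1 TPM stood 8 of 10 melanocyte markers, 7 of 8 supporting epithelium markers and 7 of 8 vestibular dark cell markers. So did 8 of 8 fibrocyte markers, 7 of 8 hair cell markers, 6 of 8 erythroid markers and 4 of 8 Schwann cell markers. The test, described below, called 37.6% of all genes with a count, and the 50% of the Schwann cell list is not far from that. This share is the background for every count of called list genes in the main test. The fibrocyte list (9549 to 13340 TPM) and the erythroid list (21790 to 51510 TPM) had larger sums than the macrophage list. Each library is a bulk sum, so which cells gave a transcript cannot be told, and fewer cells of a type cannot be told apart from less RNA per cell.

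Short stretches of the coding sequence show what the 5 carbonic anhydrase members share and where their sequences part. Each of the 5 holds, in frame and on the sense strand, a codon that starts with CA, a codon with T in its middle, another codon that starts with CA and the tryptophan codon TGG. This motif covers a pair of histidines that bind the catalytic zinc, and the capitals below mark their codons. The stretches are 54 bases long and come from GENCODE M21 coding sequences.
Car2: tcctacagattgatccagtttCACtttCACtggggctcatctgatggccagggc
Car3: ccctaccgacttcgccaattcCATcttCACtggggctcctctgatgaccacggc
Car13: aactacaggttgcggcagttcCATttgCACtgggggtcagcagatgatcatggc
Car12: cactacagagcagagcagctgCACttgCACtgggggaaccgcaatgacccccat
Car14: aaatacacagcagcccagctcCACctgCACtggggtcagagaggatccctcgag

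Of these 54 bases, 18 were identical in all 5 genes. The cytosolic enzymes Car2 and Car3 shared 41 bases and Car2 and Car13 shared 39, whereas Car2 shared 29 with Car12 and 26 with Car14, the membrane-bound enzymes. Car12 and Car14 shared 34 bases with each other. Across the aligned coding sequences, identity between pairs ranged from 59.9% (Car12 and Car14) to 66.5% (Car13 and Car12), and the longest identical run was 30 bases (Car2 and Car13). In the whole family, 13 of 16 genes held this motif in frame, and Car8, Car10 and Car11, known as carbonic anhydrase-related proteins that lack catalytic activity, did not. Of the coding sequences of all 21614 genes searched, 0.884% held it.

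Of the 9 members with a count, 7 were called above 1 TPM, where the same test called 37.6% of all genes with a count. The test was limma's moderated one-sided test of the mean log2(TPM + 1) against 1 TPM, and p-values were adjusted by Benjamini-Hochberg over 27265 genes that had a count in any library. Between 6 and 8 members were called under the 14 alternative settings. There the share of the tested genes called was 40.7% with a pseudocount of 0.1, 33.1% with a pseudocount of 5, 64.7% among genes counted in all 3 libraries and 12.1% over the whole table. It was 43.4% in CPM and with edgeR, 37.9% with TMM or DESeq2 scaling, 41.2% without the trend, 39.8% with union exon lengths and 40.6% with longest transcript lengths. Leaving out replicate 1, 2 or 3 gave 33.9%, 38.9% and 39.4%. The 5 carbonic anhydrases, Slc26a4 and Slc4a2 passed, Slc4a4 and Slc4a11 did not, and Foxi1 had no count in any library and was not tested. Of all 10 members 9 therefore passed the filter on low values. The median level over all 10 members was 4.29 on the log2(TPM + 1) scale, and the median over all genes tested was 1.49.

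**Figure D1:**
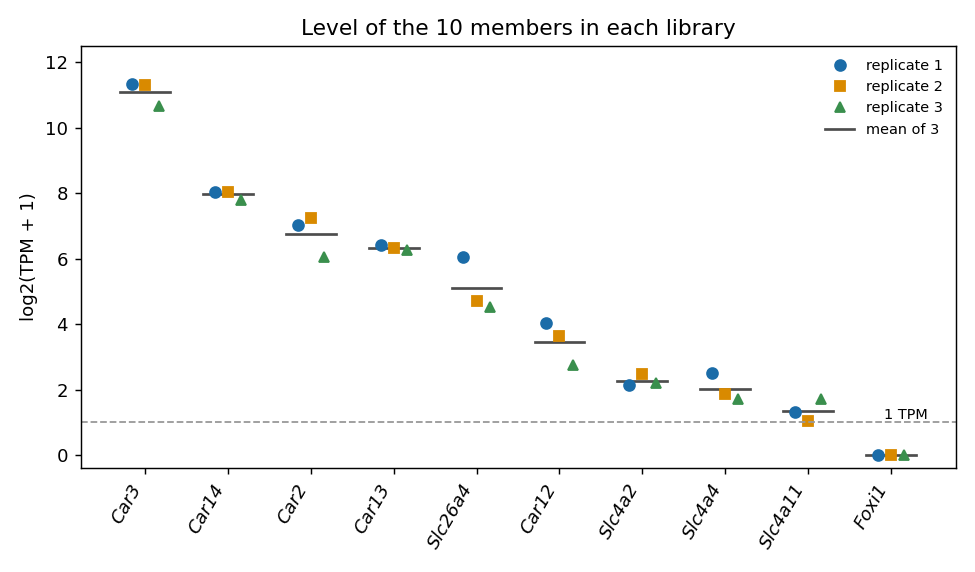
Level of each of the 10 members on the log2(TPM + 1) axis, ordered by mean TPM, with a symbol for each of the 3 libraries, a bar for their mean and a dashed line at 1 TPM. Car3 stands highest in every library, Slc26a4 has 1 library above the other two, and Foxi1 lies at 0 in all 3.

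Among the cytosolic enzymes, Car3 was by far the most abundant. Car3, an isoform of low hydratase activity known from muscle, fat and liver (chromosome 3, 14928572 to 14937583, GRCm39 as named in the submitters' processing notes, as for all gene positions below), measured 2611, 2507 and 1615 TPM in the replicates 1, 2 and 3, a mean of 2244 ± 548 TPM (SD, n = 3, as for all values below). Replicate 3 was the lowest library, and even there Car3 exceeded every other member. Its counts were 0.364% ± 0.0718 of all counts, and it lay at percentile 99.8 of the genes tested by mean TPM. Its test against 1 TPM gave an adjusted p of 1.3e-05 (limma).

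Because Car3 is known from muscle and fat, markers of these tissues were read in the same libraries. Of 8 skeletal muscle markers, 1 was called above 1 TPM, Mylpf at 11.9 ± 4.28 TPM, and Myh4 and Myod1 had no count in any library. The muscle list summed to between 17.0 and 23.6 TPM. Of 8 adipocyte markers, 1 was called, the lipase gene Lpl at 16.4, 9.85 and 8.08 TPM in the 3 libraries. Adipoq, Retn and Pck1 had no count in any library, and the adipocyte list summed to between 8.08 and 16.5 TPM. The part of these tissues in the Car3 level was not tested.

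Car2, the fast cytosolic enzyme of red cells, osteoclasts and many secretory epithelia (chromosome 3, 14951333 to 14965830), measured 130.2, 149.9 and 64.7 TPM in the replicates 1, 2 and 3, with a mean of 115 ± 44.6 TPM (limma, adjusted p = 3.36e-05). Replicates 1 and 2 were close, and replicate 3 was lower by a fold of 2.32 against replicate 2. Of 8 erythroid markers, 6 were called above 1 TPM, with none at 0 in all libraries, and the list summed to 21790, 30050 and 51510 TPM. Its sum was therefore highest in replicate 3, where Car2 was lowest. Of 8 osteoclast markers, 3 were called above 1 TPM, and the list summed to between 29.4 and 61.9 TPM. The called markers were Ctsk at 29.5 ± 21.5 TPM, Acp5 at 7.51 ± 5.07 TPM and Nfatc1 at 4.82 ± 2.61 TPM. Calcr, Ocstamp, Dcstamp and Oscar had no count in any library. The part of these cells in the Car2 level was not tested.

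Car13, also a cytosolic enzyme (chromosome 3, 14706787 to 14728062), was the steadiest member. In replicates 1, 2 and 3 it measured 84.6, 79.0 and 75.4 TPM, with a mean of 79.7 ± 4.62 TPM (limma, adjusted p = 1.31e-05). The SD of its log2(TPM + 1) level was 0.08, against a median of 0.46 over all genes tested.

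Car13, Car3 and Car2 lie in this order on chromosome 3, with 201 kb between Car13 and Car3 and 13.8 kb between Car3 and Car2. Car1, the other red cell enzyme, lies between Car13 and Car3 and had 2, 134 and 0 counts in replicates 1, 2 and 3. Its call failed (limma, adjusted p = 0.676). The mean levels of the carbonic anhydrase genes in this stretch thus ranged from 3.66 TPM for Car1 to 2244 TPM for Car3.

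The membrane enzymes differed from each other. Car14, a transmembrane enzyme with its active site outside the cell (chromosome 3, 95805080 to 95812003), came next after Car3. In replicates 1, 2 and 3 it measured 264, 263 and 221 TPM, a mean of 249 ± 24.9 TPM (limma, adjusted p = 1.3e-05). Car12, also a transmembrane enzyme (chromosome 9, 66620968 to 66674127), measured 15.3, 11.4 and 5.71 TPM in these libraries, a mean of 10.8 ± 4.84 TPM (limma, adjusted p = 0.00172). Car14 libraries lay within a fold of 1.20 of each other and Car12 libraries within a fold of 2.68, with replicate 3 lowest for both. The Car12 call was lost when all genes of the table, including those without a count, were tested (limma, adjusted p = 0.0636). Among the alternatives its adjusted p ranged from 8.64e-06 to 0.0636.

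Across all 16 carbonic anhydrase genes, Car3 supplied 82.6%, 81.7% and 79.4% of the summed TPM in replicates 1, 2 and 3, Car14 supplied 9.26% ± 1.38 and Car2 4.06% ± 0.854. The 5 members together supplied 97.9% ± 0.467. Of the 11 other carbonic anhydrase genes, 8 had a count and 3 were called above 1 TPM. This was 37.5% of those with a count, beside 37.6% of all genes with a count. The called genes were the cytosolic Car7 (34.5 ± 5.71 TPM) and the related proteins Car8 (9.07 ± 4.02 TPM) and Car11 (7.17 ± 4.59 TPM). Car7 thus stood above the member Car12. Car4, Car5a and Car6 had no count in any library. Car9, Car10 and Car15 each had counts in 1 library only (18, 40 and 50 counts).

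**Figure D2:**
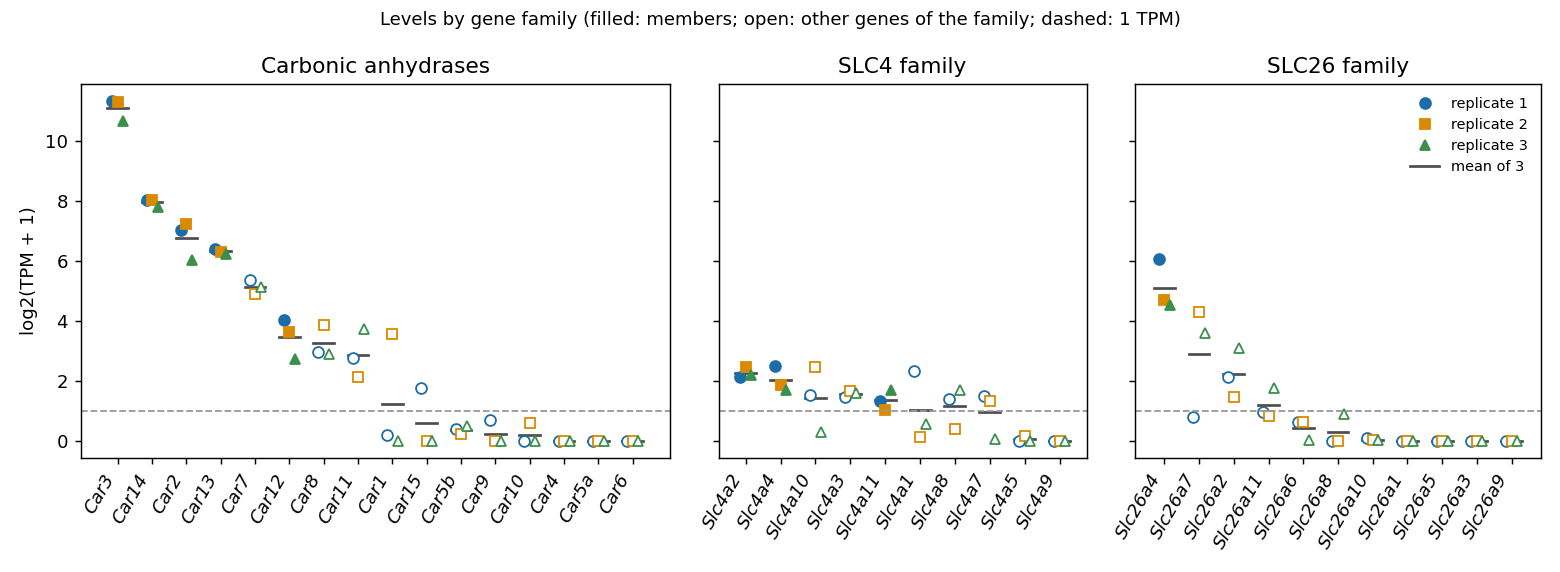
Levels of all 16 carbonic anhydrase, 10 SLC4 and 11 SLC26 genes on the log2(TPM + 1) axis, with filled symbols for members, open symbols for the other genes of the family, 1 symbol per library and a bar for the mean. The carbonic anhydrases span the widest range, the SLC4 genes all lie at a mean below 4 TPM, and Slc26a4 leads the SLC26 genes in each library.

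Pendrin transcripts were present in all 3 libraries. Slc26a4 (chromosome 12, 31569826 to 31609968) had 1525, 525 and 456 counts in replicates 1, 2 and 3, which gave 66.1, 25.0 and 22.2 TPM and a mean of 37.7 ± 24.6 TPM (limma, adjusted p = 0.000258). Replicate 1 was higher than replicate 3 by a fold of 2.98, and replicates 2 and 3 were close to each other. Its SD of 0.84 on the log2(TPM + 1) scale was the largest among the members. The call held in each of the 14 alternative settings, with adjusted p from 8.74e-10 to 0.0438.

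Foxi1 (chromosome 11, 34154338 to 34158089) was not detected at this depth. It had 0 counts in each library, which allows up to 0.163, 0.199 and 0.213 CPM in replicates 1, 2 and 3, where Slc26a4 stood at 82.6, 34.8 and 32.4 CPM. Other genes of ionocytes and of the proton pump ranged from 0 counts to 177 counts in a library. Foxi2, Atp6v1b1, which encodes the B1 subunit of the proton pump of acid-secreting cells, and the anion exchanger Slc4a9 had no count in any library. Foxi3 had 0, 2 and 0 counts, Ascl3, a transcription factor of ionocytes, 0, 24 and 0, the pump subunit Atp6v0a4 0, 0 and 26, and Atp6v1g3 9, 9 and 0 in replicates 1, 2 and 3. Of the 7 genes of the ionocyte and proton pump list, 5 had a count. Of these 5, 1 (20%) was called above 1 TPM, the pump subunit Atp6v1c2 at 5.03 ± 1.85 TPM. That call was lost without replicate 2 and when genes without a count were tested too.

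**Figure D3:**
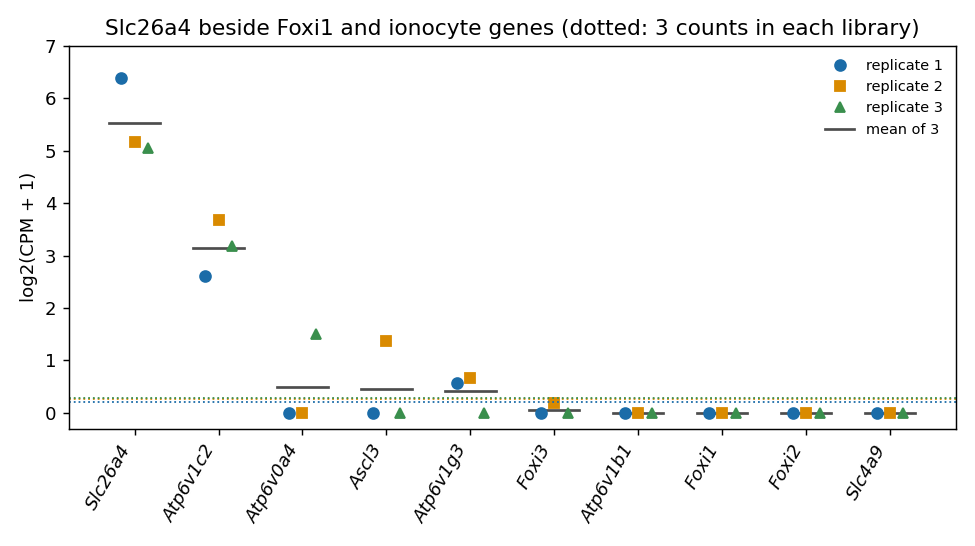
Slc26a4, Foxi1, Slc4a9 and the 7 genes of the ionocyte and proton pump list on the log2(CPM + 1) axis, with 1 symbol per library, a bar for the mean and dotted lines at 3 counts in each library. Slc26a4 and Atp6v1c2 lie above the lines in all 3 libraries, and Foxi1, Foxi2, Atp6v1b1 and Slc4a9 lie at 0 in all 3.

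The 250 bases before the RefSeq start of Slc26a4 are shown because Foxi1, a forkhead factor known to act on this gene, had no count beside it. The stretch is from GRCm38.p6, chr12:31559985-31560234, minus strand, and the capitals mark the match to the forkhead core TGTTT, searched on both strands, which begins 135 bases before the start.
Slc26a4: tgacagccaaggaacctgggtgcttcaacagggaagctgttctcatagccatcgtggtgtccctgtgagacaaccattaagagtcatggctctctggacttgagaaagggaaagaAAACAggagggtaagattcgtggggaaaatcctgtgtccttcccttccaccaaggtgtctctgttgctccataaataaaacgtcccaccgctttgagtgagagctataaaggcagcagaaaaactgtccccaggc

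The core TGTTT occurs in 46.4% of all 32851 promoter stretches of this length, and the longer TGTTTAC, which contains it, occurs in 3.17% and was not found in this window. RefSeq promoters were matched for 6 of the 10 members, with 8 stretches in all, and 4 of the 8 held TGTTT. The match is a description of the letters.

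Of the other 10 SLC26 genes, none was called above 1 TPM by limma; 2 had an unadjusted p under 0.05, and edgeR's quasi-likelihood test called 2. These 2, named after their values were seen, were Slc26a7, a chloride and bicarbonate transporter, and the sulfate transporter Slc26a2. In replicates 1, 2 and 3, Slc26a7 measured 0.766, 18.9 and 11.1 TPM, low in the library where Slc26a4 was high. Slc26a2 stood at 3.38, 1.79 and 7.67 TPM. Slc26a4 accordingly made up 92.0%, 53.1% and 50.0% of the summed TPM of the 11 SLC26 genes in replicates 1, 2 and 3. Slc26a1, Slc26a3, Slc26a9 and Slc26a5, the motor protein of outer hair cells, had no count in any library.

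The SLC4 transporters were low. Slc4a2, the chloride and bicarbonate exchanger AE2 of many basolateral membranes (chromosome 5, 24628835 to 24645948), measured 3.40, 4.57 and 3.61 TPM in the replicates 1, 2 and 3, a mean of 3.86 ± 0.623 TPM (limma, adjusted p = 0.0253). The libraries were close, but the call was lost without any single replicate (limma, adjusted p = 0.0852, 0.135 and 0.0556 without replicates 1, 2 and 3) and with a pseudocount of 5 (0.0668). Slc4a4, the sodium bicarbonate cotransporter NBCe1 (chromosome 5, 89034345 to 89387512), stood at 4.66, 2.68 and 2.28 TPM, a mean of 3.21 ± 1.27 TPM, and did not pass (limma, adjusted p = 0.0691). It did pass in 6 of the 14 alternatives: with a pseudocount of 0.1, among genes counted in all 3 libraries, in CPM, without the trend, with longest transcript lengths and in edgeR's quasi-likelihood test on the counts (adjusted p = 0.00491). Over all 14 its adjusted p ranged from 8.94e-05 to 0.257.

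Slc4a11 (chromosome 2, 130526033 to 130539439), named as a bicarbonate transporter by its family but known to conduct protons or hydroxide and to be needed in inner ear fibrocytes, stood at 1.51, 1.05 and 2.28 TPM, a mean of 1.61 ± 0.620 TPM (limma, adjusted p = 0.394). It was highest in replicate 3, unlike the carbonic anhydrases, and passed in none of the 14 alternatives. Of the 7 other SLC4 genes none was called by limma, none had an unadjusted p under 0.05 and edgeR's test called 0. The red cell exchanger Slc4a1 had 162, 4 and 17 counts in replicates 1, 2 and 3. The 3 SLC4 members made up 45.8%, 48.3% and 61.9% of the summed TPM of the 10 SLC4 genes.

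Of the 46 genes in the 5 lists of other genes of the pathway, 35 had a count in at least 1 library. Of these 35, 7 (20%) were called above 1 TPM, where the same test called 37.6% of all genes with a count. The median level of the 35 was 1.03 on the log2(TPM + 1) scale, against 1.49 over all genes tested. Besides those named above, the called genes were the scaffold proteins Nherf1 (88.0 ± 29.4 TPM) and Nherf2 (39.2 ± 14.5 TPM), which anchor transporters at apical membranes, and the monocarboxylate transporter Slc16a1 (12.2 ± 1.70 TPM). Cftr, the chloride and bicarbonate channel, had 0, 2 and 0 counts in replicates 1, 2 and 3.

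The order of the members by mean TPM was Car3, Car14, Car2, Car13, Slc26a4, Car12, Slc4a2, Slc4a4, Slc4a11 and Foxi1. In 7 of the 9 neighbouring pairs the gene with the larger mean led in each of the 3 libraries (two-sided exact permutation test by sign flips, p = 0.25 for each, which is the smallest p possible with 3 libraries; adjusted p = 0.321 over 9 pairs). Car3 exceeded Car14 by 3.14 ± 0.24 on the log2(TPM + 1) scale, and Car14 exceeded Car2 by 1.19 ± 0.50. Slc4a4 exceeded Slc4a11 by 0.67 ± 0.60, but by only 0.002 in replicate 3. The pairs that did not differ beyond their spread were Car2 and Car13, with a difference of 0.44 ± 0.59, and Slc4a2 and Slc4a4, with 0.24 ± 0.53 (exact permutation p = 0.5, adjusted p = 0.5 for both).

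Levels between genes rest on gene length. The length implied by the deposited counts and FPKM was within 1% of the sum of all distinct exons of the gene in GENCODE M21 for 92.1% of 17559 genes, so that exons overlapping between isoforms count more than 1 time. Against the union of exons, this length was longer by a fold of 1.51 for Car12, 1.43 for Slc4a2 and Slc4a11 and 1.39 for Car14, and equal for Slc26a4 and Car13. With the length of the longest transcript instead, Car12 stood at 22.5 ± 9.68 TPM and Slc26a4 at 25.5 TPM (43.9, 17.2 and 15.3 TPM in the 3 libraries), so that the 1.63 ± 0.51 by which Slc26a4 exceeded Car12 on the log2(TPM + 1) scale became 0.11. In CPM, without length, the difference was -0.15. The order of the other members was the same with the union of exons and with the longest transcript.

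**Figure D4:**
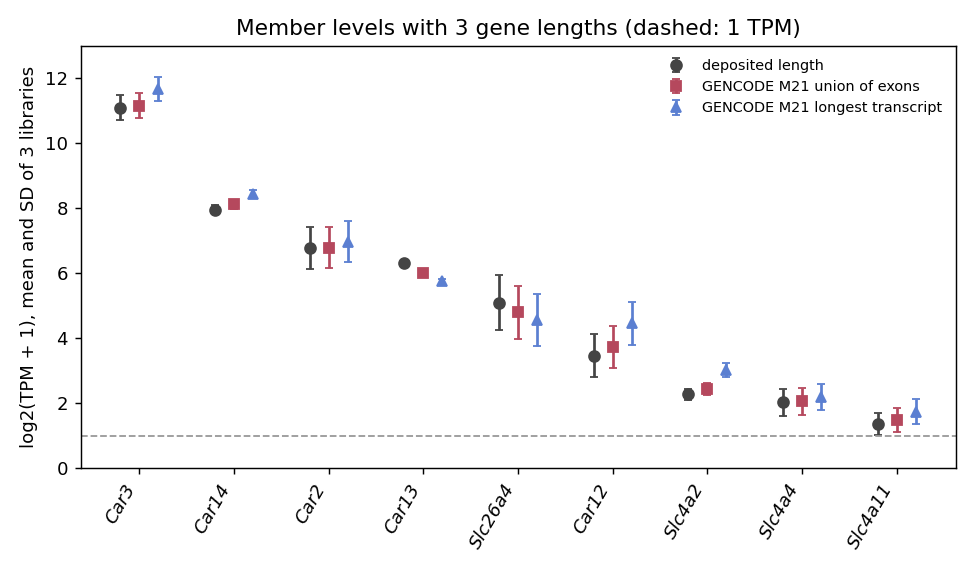
Mean and SD over 3 libraries of log2(TPM + 1) for the 9 members with counts, computed with the deposited length, the union of exons and the longest transcript, with a dashed line at 1 TPM. Car12 and Slc4a2 move up and Car13 and Slc26a4 move down with the longest transcript, and Slc26a4 and Car12 come to lie beside each other.

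Sequence shared with other genes was looked for in 75-base windows of 1 coding transcript per member. No window of Car2, Car3, Car12, Car13, Slc26a4, Foxi1, Slc4a4 or Slc4a11 occurred in a GENCODE M21 transcript of another gene. For Car14, 22.8% of windows also occurred in Aph1a, whose end overlaps it, and for Slc4a2 9.89% occurred in Fastk. Aph1a had 364, 141 and 657 counts in replicates 1, 2 and 3, against 6924, 6287 and 5159 for Car14. Fastk had 551, 392 and 886 counts, against 300, 367 and 284 for Slc4a2, so its level is the less certain. In the deposited gene positions, the long noncoding RNA Gm56774 overlaps Car3, and the long noncoding RNA Gm57322 overlaps Slc4a4. Gm56774 had 154, 45 and 37 counts in replicates 1, 2 and 3, against 72150, 63053 and 39784 for Car3. Gm57322 had no count in any library. The sources used here do not say whether counting used strand.

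The members did not all have the same order over the libraries. Car3, Car14, Car2, Car13, Car12, Slc26a4 and Slc4a4 were lowest in replicate 3, Slc4a2 was lowest in replicate 1 and Slc4a11 in replicate 2. The members furthest above their mean in replicate 1 were Slc26a4, Car12 and Slc4a4, by 0.97, 0.56 and 0.47 on the log2(TPM + 1) scale. In the same library the median of the hair cell list lay 0.79 above its mean and that of the supporting epithelium list 0.29 above, while the macrophage median lay at -0.19 and the melanocyte median at -0.40. In replicate 3, the hair cell and supporting epithelium medians lay at -0.71 and -0.32, and the fibrocyte median at -0.45, while the dark cell, erythroid, macrophage and melanocyte medians lay at 0.43, 0.41, 0.31 and 0.02. The single hair cell markers did not all follow their list median. Pou4f3, Calb2 and Otof were highest in replicate 1. Ocm, Gfi1 and Tmc1 were highest in replicate 2, and Myo7a and Atp2b2 in replicate 3. The hair cell list summed to between 331 and 527 TPM and the supporting epithelium list to between 1760 and 2575 TPM. No marker of either list was at 0 in all libraries. Their part in the members' values was not tested.

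**Figure D5:**
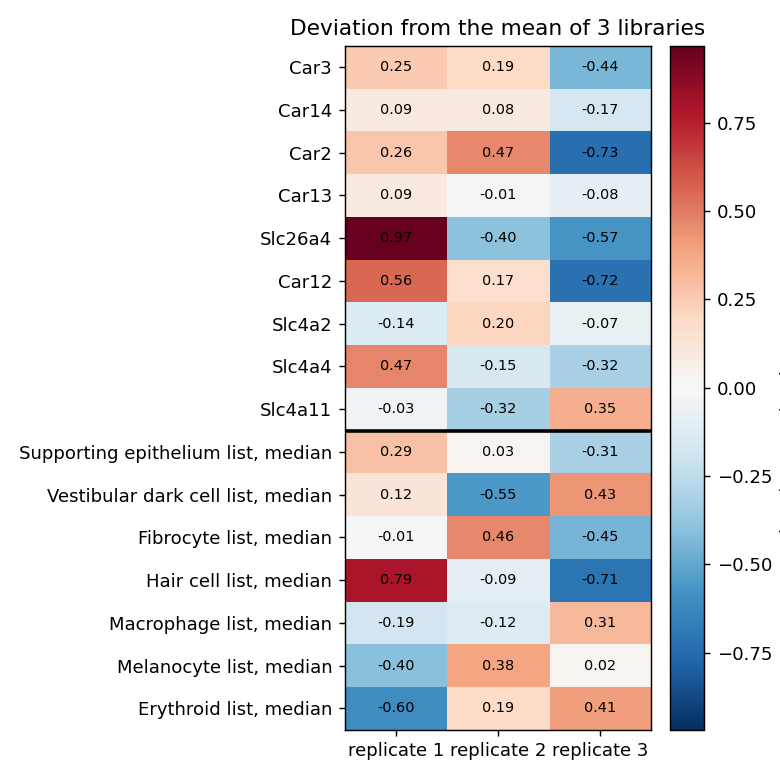
Deviation of each library from the row mean on the log2(TPM + 1) scale, for the 9 members with counts (above the line) and for the median of 7 marker lists (below it), with red for higher and blue for lower values. Slc26a4 and the hair cell and supporting epithelium medians are highest in replicate 1. Slc4a11 and the dark cell, erythroid and macrophage medians are highest in replicate 3.

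With the deposited lengths, the 5 genes with levels most like those of Slc26a4 were Nherf2, Pou4f3, Bglap, Otof and Car7. They were sought among 148 genes of the pathway and marker lists. Likeness was the root mean square difference of log2(TPM + 1) over the 3 libraries, which was 0.36 for Nherf2 and 0.38 for Pou4f3, the hair cell transcription factor. Nherf2 measured 55.9, 29.7 and 32.1 TPM in the replicates 1, 2 and 3, and Pou4f3 at 61.4, 28.9 and 34.7 TPM. Like Slc26a4, both were highest in replicate 1, though 3 libraries give few points for such a likeness. The likeness also rests on gene length. With the union of exons, Slc26a4 stood at 52.6, 20.2 and 18.0 TPM in replicates 1, 2 and 3. Nherf2 then stood at 93.6, 50.6 and 54.8 TPM, and Pou4f3 at 92.3, 44.2 and 53.3 TPM. The nearest genes were not sought again with that length.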

How the data were processed

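Polyadenylated RNA of vestibular cells was amplified with the SMART-Seq HT kit, per the labels' protocols. The submitters' processing notes name HISAT2, StringTie, edgeR and GRCm39, without versions or roles. The authors deposited raw counts per gene and FPKM (per length and per total count, per the file headers). FPKM was rescaled to TPM. Levels were log2(TPM + 1), tested with limma 3.58.1 (intercept-only, mean-variance trend, one-sided against 1 TPM, Benjamini-Hochberg, threshold 0.05). edgeR 4.0.16 tested the counts against 1 TPM through a length and library offset, its quasi-likelihood F formed from the deviance with the intercept held at 0. DESeq2 1.42.0 gave size factors only. Both tests were tested on simulated data. Total counts per library were 18460546, 15086854 and 14095521. Lengths and transcripts came from GENCODE M21 and promoters from RefSeq (GRCm38.p6), and 51884 of 57180 genes matched GENCODE by Ensembl identifier; its coordinates were not combined with those of the files. The list symbols Slc9a3r1 and Slc9a3r2 were matched to Nherf1 and Nherf2 by identifier. Named genes were all members, at most 5 called genes per pathway list, at most 3 per marker list and the 5 nearest to Slc26a4; other genes (Car9, Car10, Car15, Slc4a1, Slc26a2, Slc26a7, neighbours, and genes at or near 0) were named after their values were seen. Members and lists were chosen with earlier results of these data known. The alternatives were 2 pseudocounts, 2 filters, CPM, 2 scalings, no trend, edgeR and leaving out each library; GENCODE lengths were added after seeing the data.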

Additional observations from a re-analysis of the deposited data

How the results depend on the processing

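The number of genes called above 1 TPM stayed within 1.5 times of 10264 under all 14 alternatives. It was lowest, 6924, when all genes of the table were tested, highest, 11833, with edgeR, and between 8587 and 10027 without 1 replicate. The number of members called was 7 and ranged from 6 to 8. Car2, Car3, Car13, Car14 and Slc26a4 kept their call in all 14 alternatives. Counts of called genes in the other SLC26 list (0) became 2 with a pseudocount of 0.1, among genes counted in all 3 libraries, in CPM without length and with edgeR, 1 without the trend, 1 with the longest transcript, and between 0 and 1 without 1 replicate. The other SLC4 list (0) had 1 call when all genes of the table were tested, 2 in CPM and 1 without the trend. The other carbonic anhydrase list (3) had 1 call when all genes were tested, and the ionocyte list (1) had 0 there and between 0 and 1 without 1 replicate. Slc26a4 minus Car12 was reversed in CPM, at -0.154. Causes were not tested. TMM and DESeq2 scaling changed the median level by 0.00224 and 0.00232 (log2). No paired analysis was possible because the libraries form 1 group. Depth limits Foxi1 and the other genes at 0 to under 3 counts per library.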

Other observations

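Car1, a red cell carbonic anhydrase, and the ionocyte factor Ascl3 were counted almost entirely in replicate 2, with 2, 134 and 0 counts for Car1 and 0, 24 and 0 for Ascl3 in replicates 1, 2 and 3. The red cell gene Ahsp (22, 336 and 51 counts in replicates 1, 2 and 3) was also highest there. The globin Hba-a1 was instead highest in replicate 3, with 95855, 114589 and 198230 counts, and Slc4a1, the anion exchanger of red cells, was highest in replicate 1 with 162 counts. These genes were singled out after their values were seen, and no test was made.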
